A study of Mus musculus with 8 samples.

Results

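Chromatin accessibility at the genes of the oligodendrocyte lineage was examined in single nuclei of the wild-type (WT) mouse embryonic forebrain. The members were 5 genes: Olig1, Olig2, Sox10, Nkx2-2 and Pdgfra. Overlapping peaks from any of the 8 samples were joined, and a joined peak within 50 kb of the body of a member gene was taken as one of its elements, which gave 92 of 292532 merged regions. Of these, 36 had a peak in all 8 samples, among 68274 such regions in all. By the nearest member, Olig1 had 20 elements (7 with a peak in all samples), Olig2 had 15 (8), Sox10 had 25 (8), Pdgfra had 23 (9) and Nkx2-2 had 9 (4). Olig1 and Olig2 are neighbours on chromosome 16 and their windows overlapped, so each of their elements was given to the nearer gene. Each of 4 regions gave 2 samples: the cortex (CTX), which is dorsal, and 3 ventral ganglionic eminences (GE), of which MGE is the medial one, LGE the lateral one and CGE the caudal one. All mice were WT with no transgene or treatment, and the labels gave the embryonic day as E12.5 for 7 samples and E14.5 for CTX replicate 2. The comparisons asked whether these loci were already accessible before oligodendrocytes form, and whether accessibility differed between dorsal and ventral forebrain and among the eminences.

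Oligodendrocytes, the myelin-forming glia, arise from oligodendrocyte precursor cells, which in the forebrain come first from ventral progenitors and later from more dorsal ones. Olig1 and Olig2 are basic helix-loop-helix transcription factors, and Olig2 acts in ventral progenitors that make neurons as well as glia. Sox10, an HMG-box factor, is kept through the lineage and is needed for myelin gene expression, and Nkx2-2 is a homeodomain repressor that promotes precursor differentiation. Pdgfra is the receptor through which platelet-derived growth factor drives precursor proliferation and migration, and it is also a marker of mesenchymal cells. The assay used here, single-nucleus ATAC-seq, counts insertions of a transposase into open chromatin, so a value reports an accessible locus and not expression of the gene.

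The elements on which the regional and cell class differences turned are shown by sequence, so that their letters stand beside their values. Each window is 300 bases around the centre of the stretch that lay in the peaks of all 8 samples, on the + strand of GRCm38, 5′ to 3′, and holds no untranslated exon. Elements are named by the distance of their centre from the 5′ end of the gene body, positive in the direction of transcription. Capitals mark matches, on either strand, to the motifs searched: the E-box CANNTG, its forms CATATG and CAGCTG (each of which is also a CANNTG match), the SOX-type ACAAAG and AACAAT, the NK2-type CACTTG (also a CANNTG match) and the GLI-type GGGTGGTC. The first window, at chr15:79201933-79202232, belongs to the Sox10 -37 kb element, which had the lowest log2 fold change of the 36 in CTX, and lies within the noncoding transcript Gm10863.
Sox10 -37 kb: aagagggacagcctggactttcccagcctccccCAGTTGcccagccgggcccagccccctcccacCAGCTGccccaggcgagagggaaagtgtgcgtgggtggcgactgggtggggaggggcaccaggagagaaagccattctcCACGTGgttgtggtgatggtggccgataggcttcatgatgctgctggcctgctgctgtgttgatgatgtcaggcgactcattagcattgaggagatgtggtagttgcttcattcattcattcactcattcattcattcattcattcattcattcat
The second, at chr16:91292485-91292784, belongs to the Olig1 +23 kb element, within the lincRNA Gm15966.
Olig1 +23 kb: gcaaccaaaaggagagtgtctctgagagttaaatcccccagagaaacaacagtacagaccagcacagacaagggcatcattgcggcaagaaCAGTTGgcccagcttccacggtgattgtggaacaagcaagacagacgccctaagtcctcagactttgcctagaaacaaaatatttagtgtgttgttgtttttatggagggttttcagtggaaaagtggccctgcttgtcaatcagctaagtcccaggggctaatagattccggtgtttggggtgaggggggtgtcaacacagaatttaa
The third, at chr5:75222856-75223155, belongs to the Pdgfra +71 kb element, which is downstream of the gene and was highest in MGE.
Pdgfra +71 kb: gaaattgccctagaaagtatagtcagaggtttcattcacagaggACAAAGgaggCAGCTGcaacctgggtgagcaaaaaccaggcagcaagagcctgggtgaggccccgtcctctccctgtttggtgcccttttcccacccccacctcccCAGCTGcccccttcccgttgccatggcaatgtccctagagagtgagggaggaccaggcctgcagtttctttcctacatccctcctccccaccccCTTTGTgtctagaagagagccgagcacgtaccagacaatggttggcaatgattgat
The fourth, at chr16:91301568-91301867, belongs to the Olig1 +34 kb element, which differed most between progenitor-like and GABAergic-like nuclei.
Olig1 +34 kb: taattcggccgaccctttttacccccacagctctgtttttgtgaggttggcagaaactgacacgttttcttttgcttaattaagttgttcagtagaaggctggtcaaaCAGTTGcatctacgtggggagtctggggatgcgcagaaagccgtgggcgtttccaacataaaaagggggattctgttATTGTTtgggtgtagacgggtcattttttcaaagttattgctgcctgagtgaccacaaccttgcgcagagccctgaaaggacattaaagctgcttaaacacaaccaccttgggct
The last, at chr5:75238787-75239086, belongs to the Pdgfra +87 kb element, which was higher in GABAergic-like nuclei.
Pdgfra +87 kb: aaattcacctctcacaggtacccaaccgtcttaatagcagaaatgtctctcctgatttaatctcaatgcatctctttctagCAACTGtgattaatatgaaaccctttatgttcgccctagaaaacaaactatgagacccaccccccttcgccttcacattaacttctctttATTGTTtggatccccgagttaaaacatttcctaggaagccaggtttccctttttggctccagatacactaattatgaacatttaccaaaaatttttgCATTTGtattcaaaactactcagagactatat
For comparison, the 157 bases before the Olig2 start site (RefSeq, GRCm38, chr16:91225300-91225456, + strand) held no match to any of these motifs.
Olig2 promoter: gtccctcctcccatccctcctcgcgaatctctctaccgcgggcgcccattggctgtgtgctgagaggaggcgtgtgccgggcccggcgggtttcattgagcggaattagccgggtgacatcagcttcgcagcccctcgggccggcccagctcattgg

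Across all regions of this kind, 78% of 66956 windows of 300 bases held a CANNTG, 23.5% a CAGCTG, 4.28% a CATATG, 25.7% an ACAAAG, 12.7% an AACAAT, 15.9% a CACTTG and 0.829% a GGGTGGTC. The Sox10 -37 kb window held 3 CANNTG matches, of which 1 was CAGCTG, and no SOX-type match. The Pdgfra +71 kb window held 2 CAGCTG and 2 ACAAAG matches. The Olig1 +23 kb window held 1 CANNTG, the Olig1 +34 kb window held 1 CANNTG and 1 AACAAT, and the Pdgfra +87 kb window held 2 CANNTG and 1 AACAAT. A match is only a description of the letters in the window.

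The samples held 3465 to 6845 nuclei each and 77387940 to 138873845 counts in peaks, with a median of 14584 to 22209.5 counts per nucleus. At most 1.17% of the barcodes of a sample were shared with another. The 2 CTX samples stood apart from each other: 95.3% of the nuclei of CTX replicate 1, labelled E12.5, fell in clusters with glutamatergic neuron markers, against 3.94% of CTX replicate 2, labelled E14.5, in which 89.7% fell in clusters that no marker list named. CTX replicate 2 also held 242 of the 360 mural- or mesenchymal-like nuclei. The part of this makeup in the CTX results was not tested, and whether the age labels of the 2 CTX samples are right was not tested either. Age and sample cannot be told apart in CTX, and the elements and genes called in CTX are given without either of its samples as well. Peaks had been called in each sample separately, from 103633 to 182638 per sample, and a sample's count at an element covers only the stretch called in that sample. Levels are in CPM, a sample's count scaled to a fixed total over the 68274 regions with a peak in all samples. The labels do not say whether replicates came from separate litters, so p-values measure the spread between these samples only. A sum over nuclei cannot tell fewer open nuclei from fewer insertions per nucleus.

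All 5 start sites lay in an element with a peak in every sample, in both CTX samples as well. Of the 92 elements, 39.1% had a peak in all 8 samples, against 23.3% of all merged regions, and 22.8% had a peak in 1 sample only, against 36.3%. Elements with a peak in CTX and in no GE sample numbered 4 (4.35%, against 25.9% of all regions), and all 4 were found in CTX replicate 1 only. Elements with a peak in GE and in no CTX sample numbered 28 (30.4%, against 23.9%). One element (1.09%, against 0.790% of all regions), downstream of Olig1, had a peak in all 6 GE samples and in neither CTX sample, and another (1.09%, against 0.610%), near Olig1 too, had a peak in both MGE samples and nowhere else. No element had a peak in both CTX samples and in no GE sample, a pattern of 3.14% of all regions. These counts follow the number of peaks called per sample, and no test was made of them.

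**Figure D1:**
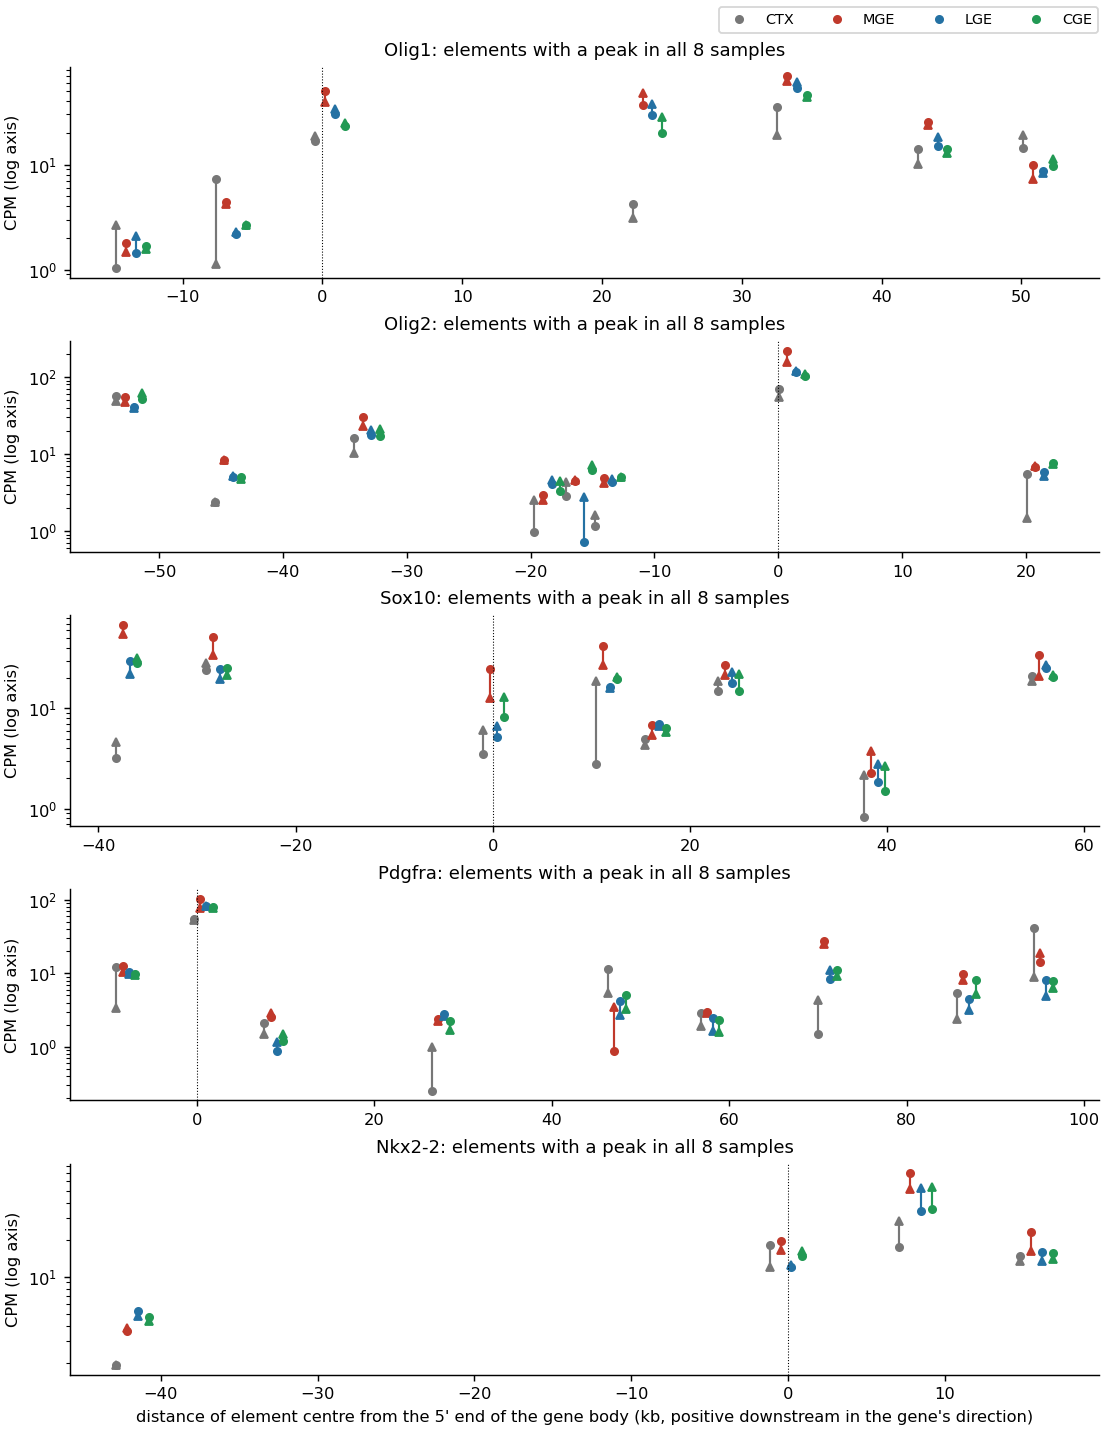
CPM (log axis) of the 36 elements with a peak in all 8 samples, against the distance of the element centre from the 5′ end of the gene body in kb, for each of the 5 genes. Circles are replicate 1, triangles replicate 2, and a line joins the 2 samples of a region; points of the 4 regions are shifted sideways so that they can be told apart. The Olig2 start-site element had the highest level, and the Sox10 -37 kb, Olig1 +23 kb and Pdgfra +71 kb elements had the widest gap between CTX and the GE samples.

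Olig2 had the broadest element of the set, and the one with the highest mean CPM, a value that sums over the called length. Its start-site element, chr16:91218927-91234133, spanned 15207 bp around the whole gene (chr16:91225457-91228677, + strand) and its called length exceeded that of 99.6% of the start-site regions. Its level was 70.4 and 54.5 CPM in CTX replicates 1 and 2, 221 and 158 in MGE, 115 and 120 in LGE, and 103 and 111 in CGE. Both MGE samples were above every other sample, both CTX samples were below every GE sample, and LGE lay slightly above CGE. The Olig2 -52 kb element, chr16:91169520-91176598, did not separate CTX from GE. It stood at 48.65 and 57.49 CPM in the CTX samples and between 39.06 and 62.87 in the GE samples. The Olig1 start-site element, chr16:91268710-91271906, was 3197 bp wide over the 1 exon of the gene (chr16:91269772-91271933, + strand). It stood at 16.8 and 18.7 CPM in CTX, 50.3 and 39.7 in MGE, 30.4 and 33.6 in LGE, and 23.3 and 24.7 in CGE, so that its 4 regions did not overlap and fell in the order MGE, LGE, CGE, CTX.

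Nkx2-2 (chr2:147177546-147194243, - strand) also had its lowest mean in CTX and its highest in MGE, with more spread. Its start-site element, chr2:147180098-147192158, covers the start of its coding transcripts inside the longest annotated body. The level was 17.3 and 28.2 CPM in CTX, 69.4 and 51.8 in MGE, 34.1 and 53.1 in LGE, and 35.8 and 54.1 in CGE. LGE and CGE replicates differed from each other by more than the 2 regions did, and replicate 2 of each reached the lower MGE sample. CTX and GE overlapped at its other elements of high level. The Nkx2-2 +16 kb element stood at 13.51 and 14.78 CPM in CTX and between 13.44 and 22.94 in GE. The element over the 5′ end of the gene body, chr2:147192898-147195842, stood at 12.02 and 18.03 in CTX and between 12.1 and 19.66 in GE.

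Sox10 (chr15:79154908-79165240, - strand) had the least accessible start site. Its element, chr15:79162783-79167470, stood at 3.54 and 6.10 CPM in CTX, 24.7 and 12.8 in MGE, 5.21 and 6.70 in LGE, and 8.19 and 13.1 in CGE. LGE and CTX overlapped, and CGE replicate 2 was above the lower MGE sample. The Sox10 -37 kb element, chr15:79200583-79204164, was the more accessible of the 2 in all GE samples. It stood at 3.20 and 4.66 CPM in CTX, 68.3 and 55.3 in MGE, 29.4 and 22.1 in LGE, and 28.5 and 31.9 in CGE, with CTX far below every GE sample and MGE above all others.

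Pdgfra (chr5:75152292-75198215, + strand) had a broad start-site element, chr5:75147843-75158235, with the least regional spread of the 5. It stood at 55.8 and 53.2 CPM in CTX, 103 and 78.0 in MGE, 84.1 and 84.0 in LGE, and 81.2 and 77.9 in CGE. MGE replicate 2 was level with CGE, so the eminences overlapped, while both CTX samples were below them. The Pdgfra +71 kb element, chr5:75222269-75224467, separated the regions more: 1.51 and 4.36 CPM in CTX, 27.4 and 25.4 in MGE, 8.48 and 11.1 in LGE, and 11.1 and 9.34 in CGE.

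Per kilobase of sequence called as peak, and summed over the regions at the gene body and the 2000 bp upstream of it, the genes ranked Olig1 (11.3 CPM per kb on the mean of 8 samples), Olig2 (9.14), Pdgfra (7.99), Nkx2-2 (5.48) and Sox10 (4.91). The Sox10 sum shares a region with the neighbouring gene Polr2f.

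**Figure D2:**
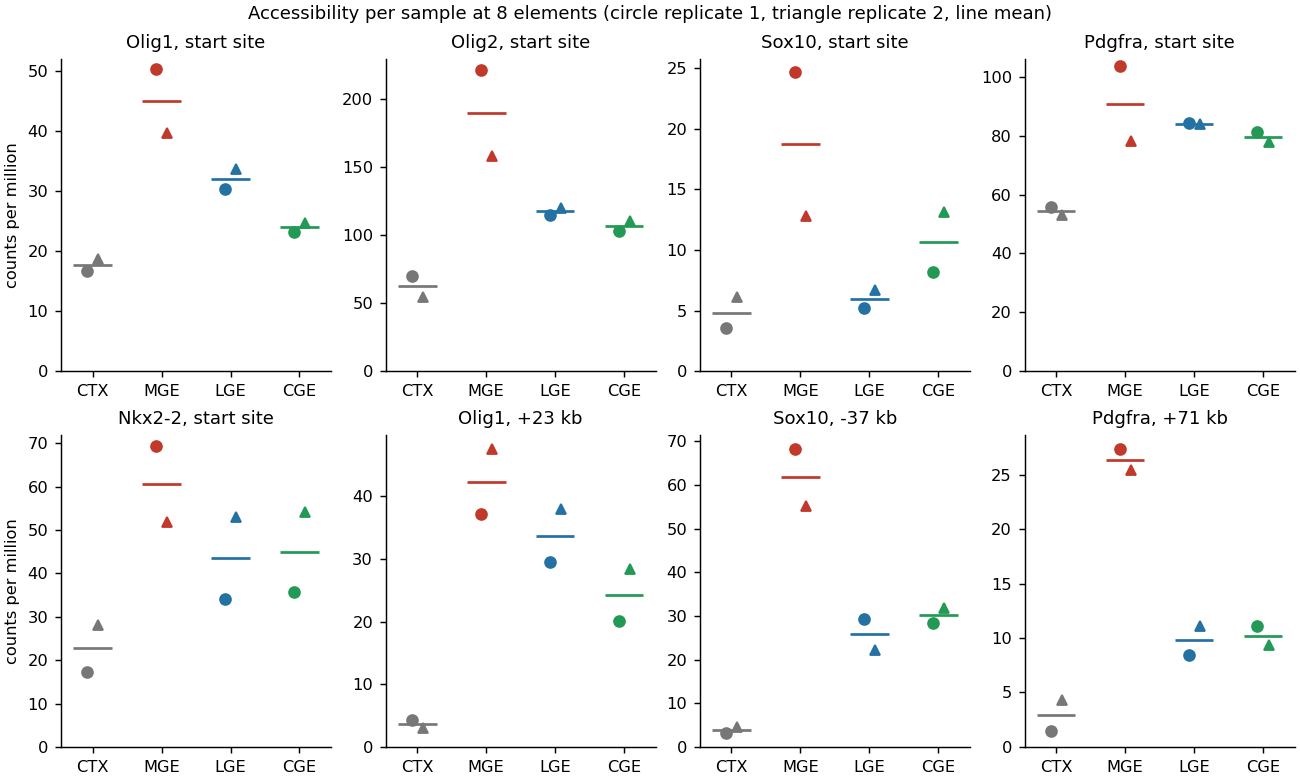
CPM per sample at the 5 start-site elements and at the Olig1 +23 kb, Sox10 -37 kb and Pdgfra +71 kb elements, by region; circles are replicate 1, triangles replicate 2 and lines the mean of 2. Both CTX samples lie below all GE samples except at the Sox10 start site. The 2 MGE samples lie above all others at the Olig1 and Olig2 start sites and the Sox10 -37 kb and Pdgfra +71 kb elements.

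To ask how the dorsal forebrain differed from the ventral, CTX was compared with the mean of the 3 eminences in a single edgeR quasi-likelihood fit of all 68274 regions. Of the 36 elements, 10 were lower in CTX and 1 was higher after Benjamini-Hochberg adjustment (threshold 0.05). Among all regions, 5.39% were lower and 9.49% higher in CTX. At 14 of the 36 elements both CTX samples lay below all 6 GE samples, which held for 14.4% of all regions. The 10 reduced elements included a start-site element of 3 of the genes: Olig2, at 0.485 times its GE level (log2 fold change -1.05 ± 0.18 SE, edgeR adjusted p = 0.0116), Olig1, at 0.566 times (-0.82 ± 0.17, adjusted p = 0.0193), and Pdgfra, at 0.669 times (-0.58 ± 0.14, adjusted p = 0.0324). The Nkx2-2 and Sox10 start-site elements had values of -1.06 ± 0.32 (adjusted p = 0.0714) and -1.08 ± 0.41 (adjusted p = 0.130) and were not called.

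The largest differences were at distal elements. In CTX the Sox10 -37 kb element was at 0.113 times its GE level (log2 fold change -3.15 ± 0.25, edgeR adjusted p = 0.00228). The Olig1 +23 kb element, chr16:91291844-91294192, stood at 4.25 and 3.08 CPM in the CTX samples and between 20.1 and 47.6 in the GE samples, with a median of 33.3. It was at 0.117 times its GE level (-3.10 ± 0.29, adjusted p = 0.00268). The Pdgfra +71 kb element was at 0.221 times (-2.18 ± 0.44, adjusted p = 0.0200). Fainter elements upstream of Olig2 fell too, with log2 fold changes of -1.69 for the Olig2 -14 kb element and -1.26 for the Olig2 -44 kb element, as did the Nkx2-2 -42 kb element (-1.14) and the Olig1 +34 kb element (-0.97).

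One element went the other way. The Olig1 +51 kb element, chr16:91320068-91321858, stood at 14.46 and 19.0 CPM in CTX and between 7.34 and 11.4 in the GE samples (0.92 ± 0.22, adjusted p = 0.0340). The Pdgfra +95 kb element, chr5:75246536-75248889, showed how far the CTX samples differed, at 41.5 CPM in replicate 1 and 9.03 in replicate 2 where GE spanned 4.88 to 19.2 (1.51 ± 0.47, adjusted p = 0.0777, not called).

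Leaving out either CTX sample leaves 1 CTX library, so that the spread in these fits comes from the GE samples alone. Log2 fold changes follow, without CTX replicate 1 first and without CTX replicate 2 second. The second fit holds only samples labelled E12.5. In these fits the Sox10 -37 kb element stayed at -2.87 and -3.46, the Olig1 +23 kb element at -3.31 and -2.90, and the Olig2 start-site element at -1.20 and -0.88. The Pdgfra +71 kb element stood at -1.57 and -3.15, and the Olig1 start-site element at -0.71 and -0.91. The Olig2 -14 kb element stood at -1.43 and -1.96, the Olig2 -44 kb element at -1.23 and -1.26 and the Nkx2-2 -42 kb element at -1.11 and -1.15. The value of the Olig1 +34 kb element rested more on the sample kept, at -1.43 without CTX replicate 1 and -0.61 without CTX replicate 2. The Pdgfra start-site element lost its call without either CTX sample, and the Olig1 +51 kb element lost it without CTX replicate 2. Over the 8 fits that left out 1 sample they ranged from -0.65 to -0.50 and from 0.70 to 1.14. The Olig1 -7 kb element turned direction with the sample kept: it was called lower without CTX replicate 1 (-1.30) and higher without CTX replicate 2 (1.36). The Sox10 +12 kb element, over the 3′ end of Sox10 and part of Polr2f, was at -2.96 without CTX replicate 2 and at -0.17 without CTX replicate 1. Dropping any 1 GE sample left fewer calls, among all regions as well.

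**Figure D3:**
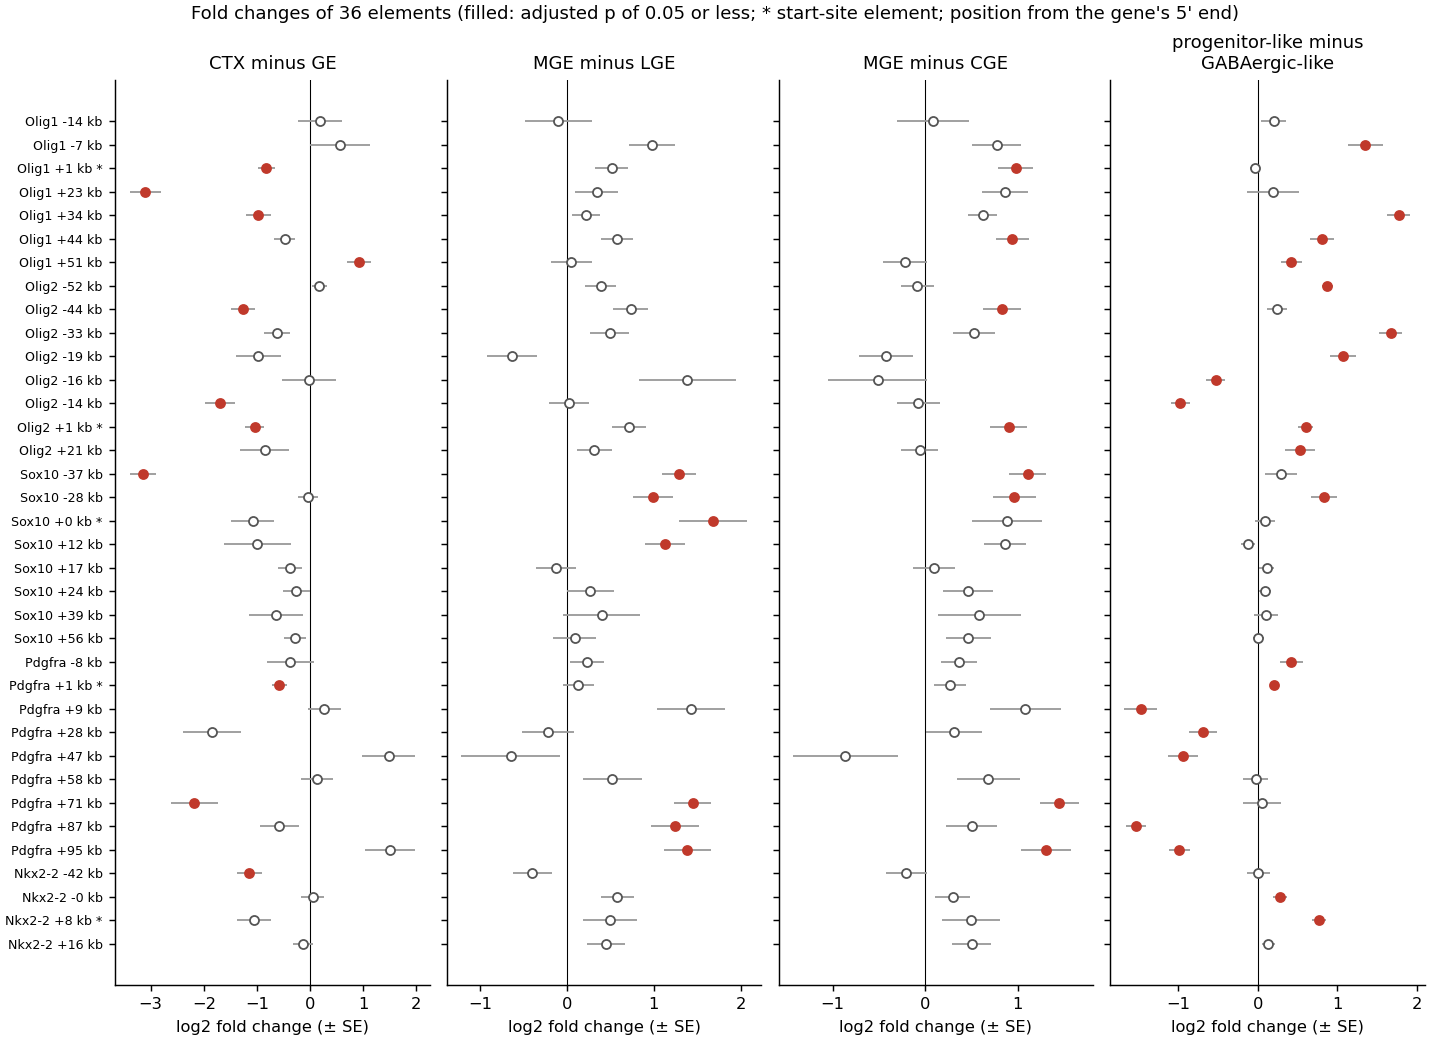
Log2 fold changes with 1 SE either side for the 36 elements, in rows ordered by gene and position, in 4 comparisons: CTX minus GE, MGE minus LGE, MGE minus CGE, and progenitor-like minus GABAergic-like nuclei. Filled points have an edgeR adjusted p of 0.05 or less (11, 7, 8 and 21 of 36), and asterisks mark the start-site elements.

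Among the eminences, MGE was compared with LGE and with CGE in an edgeR fit of the 6 GE samples. Every element called was higher in MGE: 7 of 36 against LGE and 8 of 36 against CGE. Among all regions, 4.86% and 3.56% were higher in MGE. These 2 comparisons share the MGE samples. Glutamatergic-like nuclei moved with them, at 0.468% and 1.76% of the MGE samples, 15.1% and 11.4% of LGE and 21.6% and 28.7% of CGE, and in that class, pooled over all samples, the Sox10 -37 kb element stood at 8.96 CPM and the Pdgfra +71 kb element at 3.58. The part of this makeup in the differences was not tested. Among progenitor-like nuclei alone, which different clusters held in MGE and in LGE and CGE, the Sox10 -37 kb element had values of 1.73 and 1.30 and the Pdgfra +71 kb element of 2.00 and 1.80. The Sox10 -37 kb element rose by 1.29 ± 0.20 against LGE and 1.11 ± 0.20 against CGE (edgeR adjusted p = 0.00781 and 0.0146), and the Pdgfra +71 kb element by 1.44 ± 0.21 and 1.45 ± 0.21 (adjusted p = 0.00647 and 0.00724), all on the log2 scale. The Sox10 -28 kb element, chr15:79191951-79194560, was called in both as well (0.99 and 0.96, and 0.66 and 0.62 without MGE replicate 1, each called in 3 of the 6 fits that left out 1 sample), and so was the Pdgfra +95 kb element (1.38 and 1.30).

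The other calls differed between the 2 comparisons, though the difference between them was not tested. Against LGE, the Sox10 start-site element was higher in MGE by 1.68 ± 0.39 (adjusted p = 0.0324, or 0.0634 with a replicate block), with the Sox10 +12 kb element (1.13) and the Pdgfra +87 kb element (1.24). Against CGE, the Olig2 start-site element was higher by 0.90 ± 0.20 (adjusted p = 0.0279) and the Olig1 start-site element by 0.98 ± 0.19 (adjusted p = 0.0183), with the Olig1 +44 kb (0.94) and Olig2 -44 kb (0.83) elements. Against LGE the Olig2 and Olig1 start-site elements had values of 0.71 ± 0.19 (adjusted p = 0.0563) and 0.51 ± 0.19 (adjusted p = 0.135). The start-site elements of Pdgfra (0.13 ± 0.18 and 0.27 ± 0.18) and Nkx2-2 (0.49 ± 0.31 and 0.50 ± 0.31) were called in neither.

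These eminence calls depended on how the spread and the peak length were treated. With all 8 samples in the fit, 0 elements were called by edgeR in either comparison (0.694% and 0.325% of all regions), with 10 and 9 at an unadjusted p under 0.05 (13.5% and 12.9%). MGE peaks were also longer at several of these elements: at the Sox10 -37 kb element, 3582 and 3235 bp were called in MGE, 2096 and 2026 in LGE and 2384 and 2574 in CGE. With an offset for the called length, 2 elements (Olig2 start site, Pdgfra +87 kb) were higher in MGE than in LGE (1.28% of all regions), and 4 (Sox10 -37 kb, Olig2 start site, Olig1 start site, Olig1 +23 kb) were higher in MGE than in CGE (2.92%). Against LGE, 4 calls were left without MGE replicate 1, 3 without LGE replicate 1 and 4 without LGE replicate 2, among 3393 to 5100 of all regions in place of 7269. Against CGE, 2 were left when MGE replicate 1 was dropped and 1 when either CGE sample was, among 1960 to 3634 of all regions in place of 6421. Without MGE replicate 2, 1 element was called lower in MGE than in LGE and CGE, as were 8.22% and 8.7% of all regions. It was the Pdgfra +47 kb element, at -1.90 against LGE and -2.11 against CGE. This fit leaves 1 MGE library, so its spread comes from LGE and CGE alone. The Pdgfra +47 kb element stood at 0.886 and 3.51 CPM in MGE, with 347 and 1739 bp called. It stood at 2.70 to 5.05 in LGE and CGE, and it was not called with all 6 samples. Against LGE the Sox10 -37 kb element stayed at 1.13 to 1.52 and the Pdgfra +71 kb element at 1.28 to 1.70 whichever of the 6 samples was left out. Neither was called against LGE with the length offset.

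Between LGE and CGE, 0 of 36 elements were called by edgeR, among 0.00293% of all regions. At an unadjusted p under 0.05 there were 5 (12.1% of all regions), and DESeq2 called 1 (4.03% of all regions). That 1 was the Olig2 -16 kb element, at 0.714 and 2.79 CPM in LGE and 6.28 and 7.31 in CGE (-1.90 ± 0.56, edgeR adjusted p = 0.215, DESeq2 adjusted p = 0.0299). The start-site elements of Olig2 (0.19 ± 0.19), Olig1 (0.47 ± 0.19), Sox10 (-0.80 ± 0.38), Pdgfra (0.13 ± 0.18) and Nkx2-2 (0.01 ± 0.31) had edgeR adjusted p-values of 0.365 or more.

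The eminences hold dividing progenitors and newborn GABAergic neurons, and the members were compared between these. Nuclei were clustered on the regions outside the 50 kb windows, so that the class of a nucleus did not use the values compared, and classes were named by marker genes. Progenitor-like nuclei made up 29.4% to 49.2% of each GE sample and GABAergic-like nuclei 39.3% to 58.7%. Of the 36 elements, 14 were higher in progenitor-like nuclei and 7 in GABAergic-like nuclei by edgeR with the sample as a block. The classes differed widely, with 28% of all regions higher in progenitor-like nuclei and 26.7% lower. CTX held 8 and 15 progenitor-like nuclei under this clustering, too few to compare. This count rested on the clustering: at resolution 1 a cluster of 1149 nuclei, all of CTX replicate 1, was progenitor-like, and the largest unnamed cluster, with 3710 nuclei of CTX replicate 2, had 1 of 8 progenitor markers raised.

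The Olig1 and Olig2 flanks held the steepest gains in progenitor-like nuclei. The Olig1 +34 kb element, chr16:91300327-91306402, lay between 74.5 and 96.8 CPM in the progenitor-like nuclei of the 6 samples and between 16.1 and 32.3 in their GABAergic-like nuclei (log2 fold change 1.77 ± 0.14, edgeR adjusted p = 9.48e-06). The Olig2 -33 kb element, chr16:91190585-91193923, lay between 26.3 and 39.9 CPM against 6.97 and 15.6 (1.67 ± 0.14, adjusted p = 1.28e-05). The classes did not overlap at either element. The Olig1 -7 kb (1.35) and Olig2 -19 kb (1.07) elements were fainter and rose too. The Olig2 -52 kb element was higher in progenitor-like nuclei by 0.87 ± 0.07 in 6 of 6 samples (edgeR adjusted p = 6.83e-06).

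The Olig2 start-site element was higher in progenitor-like nuclei by 0.60 ± 0.09 (edgeR adjusted p = 0.000376), in 6 of 6 samples, at 118 to 265 CPM against 97.0 to 160. The Nkx2-2 start-site element was higher by 0.77 ± 0.09 in 6 of 6 samples (adjusted p = 5.77e-05), and the Pdgfra one by 0.20 ± 0.05 in 4 of 6 (adjusted p = 0.00687). At the Olig1 start site the levels were 23.0 to 53.0 CPM in progenitor-like and 26.6 to 47.9 in GABAergic-like nuclei (-0.03 ± 0.06, adjusted p = 0.697), and at the Sox10 start site 4.99 to 26.4 and 3.57 to 22.5 (0.10 ± 0.13, adjusted p = 0.543). The Sox10 -28 kb element (0.84) was higher in progenitor-like nuclei in 6 of 6 samples. So was the element over the 5′ end of the Nkx2-2 body (0.28), while the Nkx2-2 +16 kb element was not called (0.13).

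Of the distal elements lower in CTX, the 3 with the largest differences were not called between classes: the Sox10 -37 kb element had a value of 0.29 ± 0.20 (edgeR adjusted p = 0.25), the Olig1 +23 kb element 0.19 ± 0.33 (adjusted p = 0.653) and the Pdgfra +71 kb element 0.06 ± 0.23 (adjusted p = 0.858). Each was higher in progenitor-like nuclei in 2 of 6 samples, both of MGE: the Sox10 -37 kb element stood at 82.7 and 74.1 CPM there against 47.8 and 31.1 in GABAergic-like nuclei, and at 20.04 to 37.0 against 27.6 to 37.0 in LGE and CGE. These values depended on the clustering. At resolution 1 all 3 were called higher in progenitor-like nuclei, at 0.75, 0.86 and 0.65. With another random seed, which renamed 337 to 700 nuclei in each LGE and CGE sample and 132 and 52 in MGE, and was tried after seeing the data, all 3 were called higher in progenitor-like nuclei, at 0.98, 1.06 and 0.87.

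The elements higher in GABAergic-like nuclei were 5 of Pdgfra and 2 upstream of Olig2, in 6 of 6 samples each. The Pdgfra +87 kb element, chr5:75238258-75239805, lay between 4.82 and 16.8 CPM in GABAergic-like and between 1.90 and 5.46 in progenitor-like nuclei (-1.52 ± 0.12, edgeR adjusted p = 9.17e-06). The Pdgfra +9 kb (-1.47), +95 kb (-0.99), +47 kb (-0.94) and +28 kb (-0.69) elements fell in progenitor-like nuclei as well, as did the Olig2 -14 kb (-0.97) and Olig2 -16 kb (-0.53) elements. The +28 kb call was lost with the other seed (adjusted p = 0.273).

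**Figure D4:**
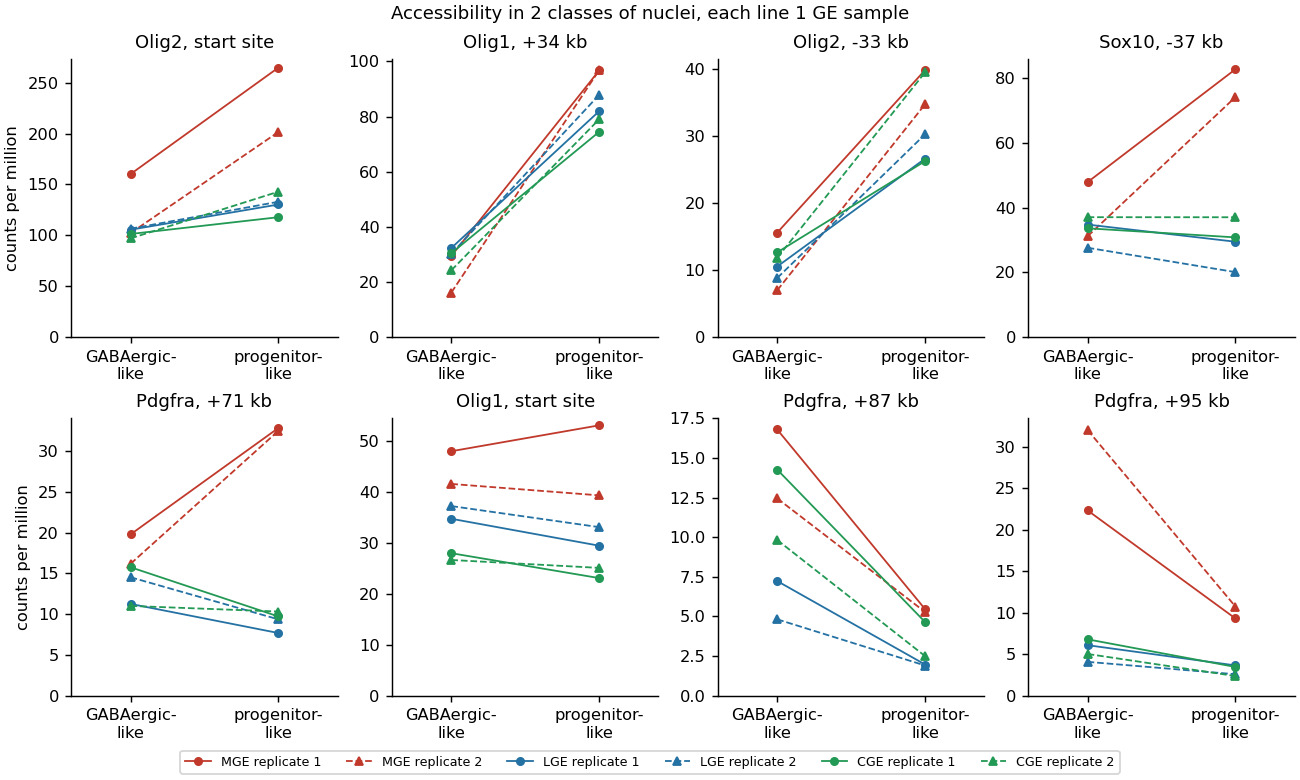
CPM in GABAergic-like and progenitor-like nuclei of the 6 GE samples at 8 elements, each line joining the 2 classes of 1 sample (solid and circles replicate 1, dashed and triangles replicate 2). All lines rise to progenitor-like nuclei at the Olig2 start site and the Olig1 +34 kb and Olig2 -33 kb elements, all fall at the Pdgfra +87 and +95 kb elements, and at the Sox10 -37 kb and Pdgfra +71 kb elements the 2 MGE lines rise and the other 4 fall.

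The eminences were then compared within progenitor-like nuclei alone. Against LGE 12 of 36 elements were higher in MGE (6.95% of all regions), and against CGE 10 (4.52%), with none called lower. Between LGE and CGE 0 were called by edgeR (0.0806% of all regions) and 0 by DESeq2 (2.6%), with 4 at an unadjusted p under 0.05 (10.8%). The Pdgfra +71 kb element stood at 32.9 and 32.5 CPM in progenitor-like nuclei of MGE, 7.68 and 9.36 in LGE and 9.72 and 10.3 in CGE (2.00 ± 0.21 and 1.80 ± 0.21 on the log2 scale, edgeR adjusted p = 0.000982 and 0.00176). The Sox10 -37 kb element stood at 82.7 and 74.1 CPM in MGE, 29.4 and 20.04 in LGE and 30.8 and 37.0 in CGE (1.73 ± 0.22 and 1.30 ± 0.22, adjusted p = 0.00215 and 0.00764). The Olig2 start-site element was higher in MGE than in both (0.89 ± 0.20 and 0.93 ± 0.20, adjusted p = 0.0197 and 0.0191), at 265 and 202 CPM against 118 to 143. That call held in 3 of 6 fits that left out 1 sample against LGE (adjusted p up to 0.120) and in 4 of 6 against CGE (up to 0.113). The Sox10 start-site element was higher than in LGE by 1.91 ± 0.36 (adjusted p = 0.0101, and 1.25 without MGE replicate 1) and than in CGE by 1.37 ± 0.35 (adjusted p = 0.0421). That last call was lost with a replicate block (adjusted p = 0.0771), at clustering resolution 1 (0.0660) and with the other seed (0.0529), and leaving out 1 sample moved its value between 0.72, without MGE replicate 1, and 1.78.

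Different clusters held the progenitor-like nuclei of the regions, one with Nkx2-1 and Gpr17 among its leading genes in MGE and another in LGE and CGE, and the GABAergic-like nuclei of MGE and of LGE and CGE were mostly in different clusters too. Against CGE, 6 elements were called without MGE replicate 1, while dropping CGE replicate 1 left 3 and dropping CGE replicate 2 left 4, among 2444 to 4635 of all regions in place of 6795. Against LGE, 7 were called without MGE replicate 1 and 6 without either LGE replicate, among 4495 to 5747 in place of 8544. The Pdgfra +71 kb element kept its call in both comparisons with the other seed. Leaving out 1 sample, which leaves 1 library of an eminence, kept it at 1.84 to 2.13 against LGE and 1.70 to 1.87 against CGE. The called-length offset was not run on progenitor-like nuclei. In the whole samples the offset left this element uncalled in both comparisons.

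Pooled over all 8 samples, 13 of the 36 elements were highest outside these 2 classes, 5 of them in glutamatergic-like and 4 in mural- or mesenchymal-like nuclei. The Pdgfra start-site element reached 127 CPM in the 360 mural- or mesenchymal-like nuclei, against 92.9 in progenitor-like, 85.3 in GABAergic-like and 59.4 in glutamatergic-like nuclei. The Pdgfra +58 kb element stood at 15.7 CPM in the 202 endothelial-like nuclei and at 1.36 to 3.49 elsewhere. The Pdgfra +95 kb element was highest in glutamatergic-like nuclei, at 34.0 CPM, which is the class that made up most of CTX replicate 1. The Olig2 start-site element had its lowest level, 41.9 CPM, in mural- or mesenchymal-like nuclei. These are pooled values over unequal samples, with no test.

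The share of nuclei with at least 1 count at a start-site element was, before depth was matched, highest in both MGE samples for each of the 5 genes, and lowest in both CTX samples for each but Sox10. For Olig2 it was 42.2% and 31.1% in CTX, 64.3% and 55.9% in MGE, 47.3% and 49.9% in LGE, and 48.8% and 49.2% in CGE. For Sox10 it was 4.28% and 4.77% in CTX, 15.5% and 10.5% in MGE, 4.41% and 4.84% in LGE, and 7.25% and 9.47% in CGE. The 95% exact (Clopper-Pearson) interval of the highest Sox10 share was 14.7% to 16.4% and that of the lowest 3.69% to 4.95%, which cover counting error only. The Olig2 shares of LGE and CGE did not separate, and the Sox10 shares of LGE overlapped those of CTX.

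The Olig1 shares were 15.9% and 12.98% in CTX, 29.6% and 28.3% in MGE, 19.6% and 21.3% in LGE, and 16.99% and 17.7% in CGE. The Nkx2-2 shares were 16.8% and 18.0% in CTX, 34.4% and 29.7% in MGE, 20.9% and 27.1% in LGE, and 22.7% and 27.6% in CGE. The Pdgfra shares were 38.2% and 30.8% in CTX, 46.3% and 43.1% in MGE, 40.7% and 42.0% in LGE, and 42.7% and 42.3% in CGE.

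Shares grow with depth, and each nucleus was therefore thinned to 3000 fragments, leaving out 221 to 1097 shallower nuclei per sample. The Olig2 share was then 16.9% and 14.46% in CTX, 42.0% and 30.4% in MGE, 25.4% and 27.0% in LGE, and 24.6% and 25.0% in CGE. At this depth both MGE samples were still the highest for Olig2, Olig1 and Sox10, but not for Pdgfra or Nkx2-2. For Sox10, MGE replicate 2 (3.67%) was nearly level with CGE replicate 2 (3.64%). The Pdgfra share of MGE replicate 2 was 18.9%, below all LGE and CGE samples (19.6% to 20.9%), and its Nkx2-2 share was 11.8%, below LGE replicate 2 (12.7%) and CGE replicate 2 (12.2%). The CTX mean was below the GE mean by 13.4 percentage points for Olig2, 6.54 for Pdgfra, 5.71 for Nkx2-2, 3.95 for Olig1 and 1.72 for Sox10. An exact two-sided permutation test over the 28 choices of 2 of 8 samples gave p = 0.0714 for each but Sox10, the smallest it can give (adjusted over the 5 genes, 0.0893), and p = 0.143 for Sox10, so that the design could not reach 0.05. In the 360 mural- or mesenchymal-like nuclei, which should lack neural regulators, 24.2% had a count at the Olig2 start site, 9.17% at the Olig1, 18.1% at the Nkx2-2 and 6.11% at the Sox10 start site, at a median of 12950 counts. The Sox10 shares of CTX and LGE and the Nkx2-2 shares of CTX were at or below that level. Depth was not matched here, CTX replicate 2 gave 242 of the 360 nuclei, and whether these shares are background was not tested. In CPM the Nkx2-2 start site stood at 26.1 in the mural- or mesenchymal-like nuclei, between the CTX samples (17.3 and 28.2). In the 202 endothelial-like nuclei the shares were 55.9% for Olig2, 20.8% for Olig1, 33.2% for Nkx2-2 and 13.4% for Sox10, at a median of 36700 counts, more than the depth of any sample. In CPM, the endothelial-like level of the Olig2 start site was 68.6, between those of the 2 CTX samples.

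Nuclei with a count at all 5 start sites made up 3.17% and 1.76% of the MGE samples and 0.101% to 0.817% of the other 6. Nuclei with a count at none made up 16.8% and 21.2% in MGE, 22.3% to 27.1% in LGE and CGE, and 33.1% and 37.7% in CTX. The part of the single shares and of depth in these values was not tested.

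**Figure D5:**
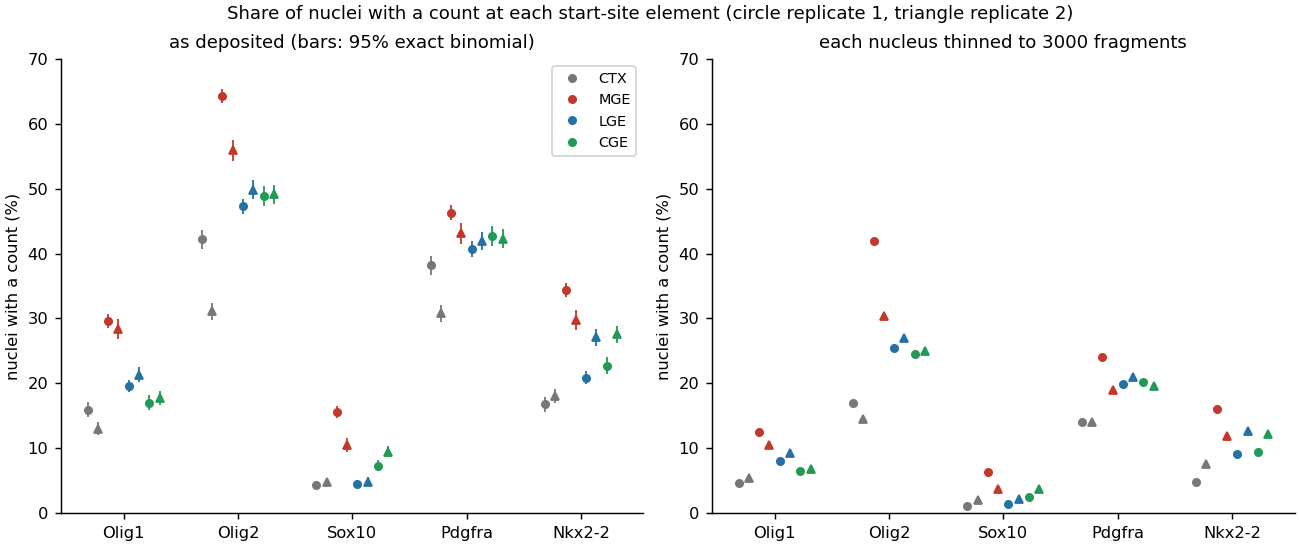
Percent of nuclei with a count at the start-site element of each gene in the 8 samples, as deposited (left, bars are 95% exact binomial intervals) and with each nucleus thinned to 3000 fragments (right); circles are replicate 1 and triangles replicate 2. Shares fall with thinning and both MGE samples stay above the CTX samples for all 5 genes.

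Summed over a gene body and its 2000 bp upstream, 2 of the 5 genes were lower in CTX by edgeR over 16240 genes, Olig2 by -0.99 ± 0.17 (adjusted p = 0.0132) and Olig1 by -0.78 ± 0.14 (adjusted p = 0.0149), where 1.19% of all genes were lower. With an offset for the called length the Olig2 call was lost (adjusted p = 0.127). With CTX replicate 1 left out the Olig2 value was -1.23, the Sox10 value -0.35 and the Olig1 value -0.74, and Olig1 lost its call. With CTX replicate 2 left out the Olig2 value was -0.79, the Olig1 value -0.82 and the Sox10 value -2.25. Each of these 2 fits leaves 1 CTX library, so the spread comes from the GE samples. The length called for Sox10 was 2462 and 5896 bp in CTX, 10115 and 8516 in MGE, 3511 and 8238 in LGE, and 4876 and 8513 in CGE. None of the 5 was called among the eminences by edgeR, where 0.123% of genes were higher in MGE than in LGE and 0.105% than in CGE. Olig1, Olig2, Sox10 and Nkx2-2 had an unadjusted p under 0.05 for MGE against LGE (9.33% of all genes), and Olig1, Olig2 and Sox10 for MGE against CGE (10.1%), all with values above 0. DESeq2 called 2 against LGE (2.7% of all genes) and 3 against CGE (2.48%). Sox10 had the largest of these values, 1.26 ± 0.22 against LGE (edgeR adjusted p = 0.0569).

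The wider oligodendrocyte programme was read from a list of 30 genes of regulators, precursor membrane proteins, myelin genes, ligands and inhibitors, of which 28 had a region with a peak in all samples. Of these, 2 were lower in CTX and 0 higher, where 1.19% of all genes were lower and 3.13% higher. Gpr17, a receptor of committed precursors, stood at 0.842 and 4.53 CPM in CTX, 32.6 and 34.0 in MGE, 15.3 and 10.6 in LGE, and 14.7 and 10.6 in CGE (-2.69 ± 0.55, edgeR adjusted p = 0.0250), on a region it shares with Lims2. The length called there differed too, at 290 and 1103 bp in CTX, 3591 and 3657 in MGE and 1030 to 1107 in LGE and CGE. Nkx6-2, a homeodomain factor of ventral progenitors, stood at 23.7 and 19.4 CPM in CTX, 78.4 and 46.6 in MGE, and 35.3 to 45.7 in LGE and CGE (-1.04 ± 0.22, adjusted p = 0.0294), on a region shared with Inpp5a. Nkx6-2 lost its call without CTX replicate 2 and with the offset for called length (edgeR adjusted p = 0.0839 with the offset). It ranged from -1.215 to -0.885 over the 8 fits that left out 1 sample. Gpr17 stood at -1.93 without CTX replicate 1 and at -4.32 without CTX replicate 2. Each of these 2 fits leaves 1 CTX library, so the spread comes from the GE samples. The median of the list was -0.09 against -0.01 over all genes, and the myelin genes Mag, Cnp, Mobp, Opalin, Cldn11 and Ugt8a were called in no comparison. Between eminences 0 of 28 were called by edgeR, with 5 (MGE and LGE), 8 (MGE and CGE) and 2 (LGE and CGE) at an unadjusted p under 0.05, and 1, 2 and 0 by DESeq2. Among all genes the LGE and CGE comparison had 3.24% at an unadjusted p under 0.05 and 0.197% called by DESeq2, and the shares for MGE are those given above.

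The deposited motif counts, which tally insertions in peaks that hold a factor's motif, gave another readout. Of 8 motifs of the OLIG, SOX10 and NKX2 families among 579, 0 were called by edgeR in any comparison, with 4 at an unadjusted p under 0.05 between CTX and GE (21.8% of all motifs), and 2 for MGE and LGE (4.32%), 2 for MGE and CGE (2.94%) and 3 for LGE and CGE (10.4%). Between eminences DESeq2 called 0 of the 8 (5, 7 and 14 of all 579). The OLIG2 motif stood at 408 and 252 motif CPM in CTX, 218 and 234 in MGE, 176 and 223 in LGE, and 254 and 265 in CGE, so that CTX replicate 1 was the highest sample while the Olig2 locus was among the least accessible there. DESeq2 called the 3 OLIG motifs higher in CTX (10.4% of all motifs), and these 3 had nearly the same counts, so they stand for a single value. By edgeR the OLIG2 motif was at 0.56 ± 0.18 in CTX (adjusted p = 0.168). It was at 0.18 without CTX replicate 1 and at 0.87 without CTX replicate 2, each of which leaves 1 CTX library. The SOX10 motif lay between 1250 and 1435 motif CPM in all samples.

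The protein-coding genes whose accessibility followed each member most closely over the 8 samples were Sema4c, Sox1 and Gm44965 for Olig1 (Pearson r of 0.978, 0.976 and 0.970), Hrh3, Rimkla and Gjd3 for Olig2 (0.987, 0.987 and 0.986), and Emp3, Nphs1 and Carhsp1 for Sox10 (0.988, 0.972 and 0.970). For Pdgfra they were 6030445D17Rik, Ckap4 and Stmn4 (0.986, 0.978 and 0.977), and for Nkx2-2 they were Aldh4a1, Gnb1 and Ptges3l (0.984, 0.982 and 0.978). They are the highest of 14573 genes over 8 points that share libraries and a regional pattern. Among the members, r ran from 0.671 for Sox10 and Pdgfra to 0.941 for Olig1 and Olig2.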

How the data were processed

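Single-nucleus ATAC-seq had been run on 8 samples, 2 each of CTX, MGE, LGE and CGE. Per the labels, the authors processed reads with Cell Ranger ATAC 1.2.0 on mm10 (GRCm38). The deposited matrices hold, per nucleus, whole-number counts in peaks called in each sample separately, and counts in peaks holding each of 579 motifs. Odd values made up about 10% of the nonzero entries of each replicate 1 and 5.17% to 5.85% of replicate 2. All deposited nuclei were used, and no doublet caller was run.

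Overlapping peaks were merged across samples, and counts were summed per sample. Differences were tested with edgeR 4.0.16 (R 4.3.3; quasi-likelihood, TMM) over all 68274 regions with a peak in all samples, with Benjamini-Hochberg adjustment at 0.05. CTX against GE used 8 samples and the eminences 6. Genes were summed over the body and 2000 bp upstream (GENCODE M21). Nuclei were clustered (TF-IDF, 30 components, 20 neighbours, Leiden resolution 0.5) without the member windows, and summed per sample and class. Alternatives were DESeq2 1.42.0, a called-length offset, all merged regions, all 8 samples in the eminence fits, windows of 20 and 100 kb, Leiden resolution 1, a replicate block, another clustering seed (added after seeing the data) and leaving out each sample. Tested on simulated data for MGE minus LGE, the element fit recovered 48 and 47 of 50 elements changed by 2 and -2 on the log2 scale, but 4 and 9 of 50 changed by 1 and -1, with 4 false calls. The simulation gave all 68274 regions the same dispersion and changed few of them. Its rates therefore do not measure the recovery of the fits above.

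The rule for named items took the 5 members, their start-site elements, 2 further elements of high mean CPM per gene, the called elements with the largest changes (at most 3 per gene and direction), the called genes of the list and the 3 genes most alike each member; other elements in the text were named after their values were seen. The members and lists were chosen with earlier results of these data known. Element sequences are from GRCm38.p6, and the RefSeq promoter table had entries for Nkx2-2, Olig2 and Pdgfra.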

Additional observations from a re-analysis of the deposited data

Results flagged for a closer look

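At the Sox10 start-site element, the log2 ratio of progenitor-like to GABAergic-like nuclei was above 0 in both MGE samples (0.23 and 0.03) and below 0 in both CGE samples (-0.03 and -0.50), and the mean ratios differed by 0.397. This difference was not tested, and it was noted only for the signs in these 2 eminences, with 1 sample of each near 0. In LGE the ratio was 0.48 and -0.15, so that the 2 LGE samples lay further apart than the MGE and CGE means.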

How the results depend on the processing

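The members called in each comparison varied with the processing, and the cause was not tested except where the setting itself leaves fewer samples or regions. For CTX against GE (11 elements), 16 were called by DESeq2 (15780 of all regions) and 10 with the called-length offset (6260). The offset moved the median of the 36 elements from -0.58 to -0.28. There were 7 called over all merged regions (10633 of 178101 regions in all, against 10160 of 68274) and 5 with a 20 kb window, which holds 22 of the 36 elements. For MGE against LGE (7, with 7269 of all regions), the counts were 13 by DESeq2 (11404 regions), 2 with the called-length offset (4423), 2 over all merged regions (5968 of 152390), 0 with all 8 samples in the fit (474) and 2 with a 20 kb window. For MGE against CGE (8, with 6421), they were 4 with the offset (3472), 1 over all merged regions (3750), 0 with all 8 samples (222) and 2 with a 20 kb window. For LGE against CGE (0, with 2), DESeq2 called 1 (2754). Of the 5 genes, DESeq2 called 4 lower in CTX (1359 of all genes called), 2 higher in MGE than in LGE (438) and 3 higher in MGE than in CGE (402), and the offset left 1 in CTX (100). DESeq2 called 3 motifs for CTX against GE. The offset moved the median of all regions to -0.17 for MGE against LGE, 0.10 for MGE against CGE and 0.26 for LGE against CGE.

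Leaving out 1 sample gave 4 to 16 elements for CTX against GE (4274 to 17986 of all regions), 3 to 9 for MGE against LGE (3393 to 9140), 1 to 11 for MGE against CGE (1960 to 9237) and 0 to 1 for LGE against CGE (0 to 490). Within progenitor-like nuclei the ranges were 6 to 11 (4495 to 10031), 3 to 11 (2444 to 9075) and 0 to 1 (0 to 319), and between classes 17 to 21 (33252 to 35918). For genes they were 1 to 3 (252 to 1189 of all genes), 0 to 1 (0 to 293) and 0 to 3 (0 to 357), and for motifs 0 (0 to 5 of all motifs). No called value changed sign. The Olig1 -7 kb element, not called with all samples, took opposite signs without CTX replicate 1 and without CTX replicate 2. The Pdgfra +47 kb element was lower in MGE without MGE replicate 2. A fit between regions that leaves out 1 sample has 1 sample of that region, so the spread comes from the other regions.

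Replicate numbers were not taken as pairs, since same-numbered deviations did not correlate between all regions (-0.0283 for MGE and CGE, 0.486 for LGE and CGE). With a replicate block, 11, 6, 9 and 0 elements were called in the 4 comparisons (9335, 7423, 6451 and 0 of all regions), 3, 0, 0 and 0 genes (848, 10, 17 and 0 of all genes), 0 motifs, and 12, 9 and 0 elements in progenitor-like nuclei (8718, 6884 and 1).

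The classes depended on the clustering. Resolution 1 called 24 elements between classes (40574 of all regions) and another seed, chosen after seeing the data, 23 (41200), against 21 (37385). Within progenitor-like nuclei both called 11 for MGE against LGE (8184 and 7937 of all regions), 9 for MGE against CGE (6754 and 6345) and 0 for LGE against CGE (72 and 53).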
